A study of Mus musculus with 3 samples.

Results

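Chemokines are small secreted proteins that guide migrating cells, and their signals are read by G protein-coupled receptors. Cxcl12 is held on matrix and on cell surfaces, draws cells that carry Cxcr4, and is also bound by Ackr3, an atypical receptor that takes the ligand up and signals through arrestins. In the developing mouse kidney Cxcl12 is known as a stromal signal that acts on the growing vessels, whereas Cxcl1, Cxcl10, Ccl2 and Ccl7 are best known as inducible ligands that recruit leukocytes. The 9 genes described here are 7 ligands (Cxcl12, Cxcl1, Cxcl10, Cxcl14, Cx3cl1, Ccl2 and Ccl7) and 2 receptors (Cxcr4 and Ackr3). They were taken as all probe sets that the platform annotation gives a single symbol among these names, which yielded 17 of 34945 single-symbol probe sets and 9 of 18193 genes.

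The cells were sorted for green fluorescence from Meis1-EGFP transgenic mouse kidneys (CD-1 background, allele Tg(Meis1-EGFP)FO156Gsat) at E15.5 (Theiler stage 23). A fluorescent protein under Meis1 control marked the sorted cells, so the population is defined by that protein and not by the Meis1 transcript itself. Before sorting, the kidneys were dissociated in trypsin at 37 °C for 5 min. There was 1 group of 3 arrays, each from a pool of about 20 kidneys, and no unsorted, negative or treated sample was analysed here. Sex was given as unknown, and the labels call the cells both nephrogenic interstitium and peripheral blastema. The series was made to define which genes a sorted kidney compartment expresses.

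With no second group to compare, each gene was set against an estimate of background signal. For this estimate, called the level below, the 95th percentile was taken on each array over 72 chemosensory genes (receptors for odorants, pheromones and trace amines, used by sensory neurons), giving signals of 134.9, 184.9 and 168.3 in replicates 1, 2 and 3. Distances below are log2 signal minus this level, averaged over the 3 arrays, and a gene was called when limma's one-sided test against 0 gave a Benjamini-Hochberg adjusted p under 0.05 over all 18193 genes. Of 58 measured tissue restricted genes, a list of markers of unrelated tissues, 5 were called (8.62%), beside 57.3% of all genes tested. They were Krt10 (3.06), Lor (1.89), Prm1 (0.63), Pomc (0.55) and Apoa2 (0.55). Calls at such distances thus also occurred for markers of unrelated tissues. The kidney stroma list had 15 of 15 genes called. Among them were Foxd1 (7.47 ± 0.21, SE, n = 3), Meis1 (6.84 ± 0.21), Meis2 (7.60 ± 0.20) and Fat4 (7.59 ± 0.20). The nephron progenitor list had 6 of 8 called (75.0%). Six2 lay at 1.86 ± 0.21, Eya1 at 3.47 ± 0.27, Sall1 at 6.12 ± 0.21 and Meox1 at 2.59 ± 0.22. Cited1 (-4.20 ± 0.20) and Osr1 (-3.13 ± 0.37) were not called. With Epcam (4.13 ± 0.24), Wnt11 (2.06 ± 0.23), Calb1 (1.64 ± 0.28) and Krt18 (2.19 ± 0.22), the ureteric bud list had 4 of 8 called, and Ret (-0.34 ± 0.25) and Wnt9b (-0.13 ± 0.22) were not. When the probe sets of every gene were averaged, Sall1 lay at 3.19, still called, and Eya1 (-0.29) and Calb1 (-1.43) were not called. The other stroma, progenitor and bud genes named here as called kept their calls in that setting. In a pooled sort, fewer cells of a type and less RNA per cell cannot be told apart. The lists were chosen with earlier results of these data known, so their counts are no independent check of the sort.

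The sorted cells had Cxcl12 and its receptor Ackr3 far above background, Cxcl1 marginally so, and no call for Cxcr4, Cxcl10, Cxcl14, Cx3cl1, Ccl2 or Ccl7. In all, 3 of the 9 genes were called, beside 57.3% of all genes tested. Their median distance was -0.35 log2 units, and that of all genes was 1.52. At the level of probe sets, 3 of 17 were called, beside 48.7% of all single-symbol probe sets, and 11 of the 17 lay below the level on every array. Of all 18193 genes, taken by their brightest probe set, 6004 lay below it on every array. By the simpler rule of exceeding the level on all 3 arrays, 3 of the 9 genes passed, beside 59.2% of all genes, and 4 of the 17 probe sets, beside 51.6%.

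**Figure D1:**
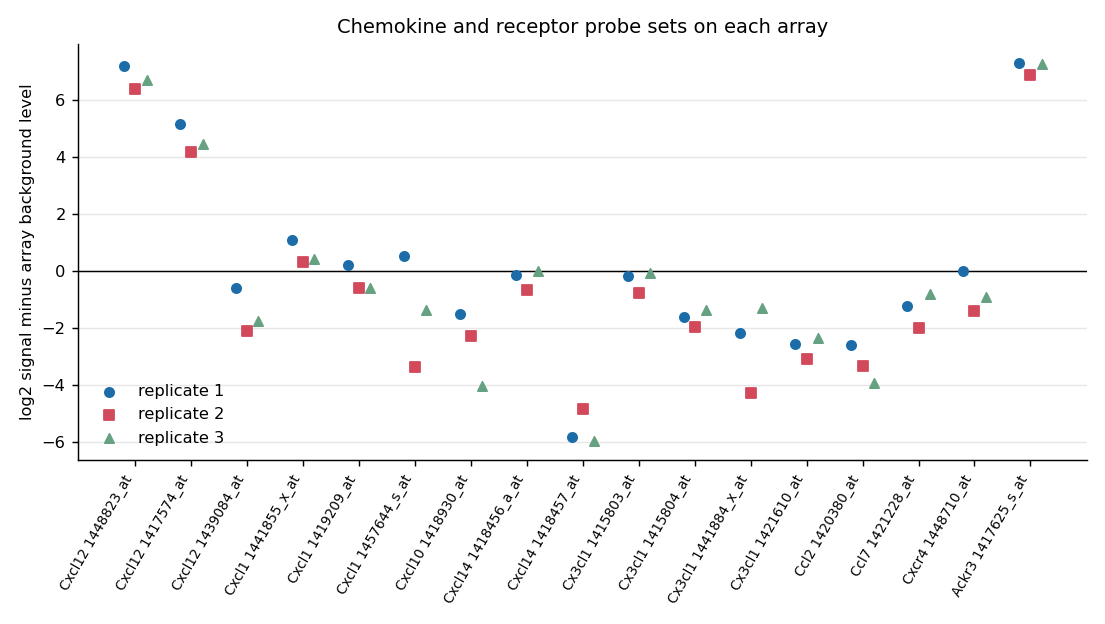
Each point is the log2 signal of a probe set on an array minus the background level of that array (y axis), for the 17 probe sets of the 9 genes (x axis), with replicates 1, 2 and 3 as circles, squares and triangles. A pair of the Cxcl12 probe sets and the single Ackr3 probe set stand between 4.16 and 7.29 on every array, and no other point exceeds 1.08.

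The promoters of Cxcl12, its signalling receptor Cxcr4 and its atypical receptor Ackr3 are shown because this ligand and its receptors carry the main result. Each is 250 bases before to 50 after the annotated start, from RefSeq on GRCm38.p6, read 5′ to 3′ on the gene's strand, and capitals mark the GC box GGGCGG on either strand. The windows are chr6:117168285-117168584 (plus strand) for Cxcl12, chr1:128592250-128592549 (minus strand) for Cxcr4 and chr1:90203730-90204029 (plus strand) for Ackr3.
Cxcl12: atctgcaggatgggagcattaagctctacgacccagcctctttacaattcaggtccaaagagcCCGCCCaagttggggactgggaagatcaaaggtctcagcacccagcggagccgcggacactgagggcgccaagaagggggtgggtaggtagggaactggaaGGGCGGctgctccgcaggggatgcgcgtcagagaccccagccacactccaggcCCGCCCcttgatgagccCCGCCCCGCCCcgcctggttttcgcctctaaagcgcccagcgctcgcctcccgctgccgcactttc
Cxcr4: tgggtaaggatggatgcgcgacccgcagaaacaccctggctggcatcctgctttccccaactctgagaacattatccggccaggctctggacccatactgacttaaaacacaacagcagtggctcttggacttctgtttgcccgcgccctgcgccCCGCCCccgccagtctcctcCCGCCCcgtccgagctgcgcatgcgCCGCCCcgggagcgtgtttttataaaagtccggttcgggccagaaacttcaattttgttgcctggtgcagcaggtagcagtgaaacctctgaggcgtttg
Ackr3: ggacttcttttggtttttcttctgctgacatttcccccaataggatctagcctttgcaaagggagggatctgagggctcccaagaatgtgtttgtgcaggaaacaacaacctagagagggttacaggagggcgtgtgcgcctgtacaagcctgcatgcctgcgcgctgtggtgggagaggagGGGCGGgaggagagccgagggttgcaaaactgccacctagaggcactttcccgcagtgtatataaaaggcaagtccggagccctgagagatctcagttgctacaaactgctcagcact
The Cxcl12 window held 5 GC boxes, 2 of them overlapping, the Cxcr4 window 3 and the Ackr3 window 1. A GC box was found in 35.7% of 32851 promoters of this length, in 64.1% of those of called genes and in 34.3% of those of genes that were measured and not called. The TATAAA motif, searched on both strands, lay 30 bases before the start in Cxcr4, overlapping a match on the other strand 32 bases before it, and 8 bases before it in Ackr3, was not in the Cxcl12 window, and occurred in 13.6% of all promoters. CpG dinucleotides numbered 20 in Cxcl12, 20 in Cxcr4 and 8 in Ackr3, against a median of 21 in promoters of called genes and 7 in promoters of genes not called. Cxcr4, which was not called, thus matched Cxcl12 in its CpG count, and Ackr3, which was called, had fewer.

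Cxcl12, the ligand of Cxcr4 and Ackr3, had signals of 19318, 15313 and 17333 in replicates 1, 2 and 3 with its brightest probe set, 1448823_at. Its distance above the level was 6.74 ± 0.24 log2 units (SE, n = 3), or 107-fold, with a limma adjusted p = 9.12e-07. None of the 72 chemosensory genes had a higher signal on any array. Its second probe set, 1417574_at, gave 4748, 3298 and 3635 and was also called, at 4.58 ± 0.27 (SE; limma adjusted p = 2.14e-05 over all probe sets). The third, 1439084_at, gave 88.1, 43.2 and 49.8 and lay below the level on every array, at -1.49 ± 0.34. The Cxcl12 call therefore rests on 2 of its 3 probe sets, and the mean of the 3 distances at these levels was 3.28. When the probe sets of every gene were averaged, which also moves the level, it was 3.47. Of 6828 called genes with more than 1 probe set, 3361 also had a probe set below the level on every array.

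Ackr3, formerly Cxcr7, had signals of 21084, 21706 and 25858 in replicates 1, 2 and 3 on its single probe set, 1417625_s_at. Its distance above the level was 7.14 ± 0.21 log2 units (SE, n = 3), or 141-fold, with a limma adjusted p = 7.78e-07, and none of the 72 chemosensory genes exceeded it on any array. The suffix of this probe set says that its probes match more than one transcript, so the gene has no value when such probe sets are left out.

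Cxcr4, the G protein-coupled receptor of Cxcl12, had signals of 133, 70.4 and 88.9 in replicates 1, 2 and 3 on its single probe set, 1448710_at. All 3 were below the array's level, with replicate 1 only 0.02 log2 units under it, and the mean distance was -0.78 ± 0.31 (SE, n = 3; limma adjusted p = 1). On these arrays 4, 28 and 20 of the 72 chemosensory genes had a higher signal. A probe set can fail, so this does not show that the transcript was absent. Cxcr4 and Ackr3, which share a ligand, thus fell on opposite sides of the level in all 3 arrays.

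**Figure D2:**
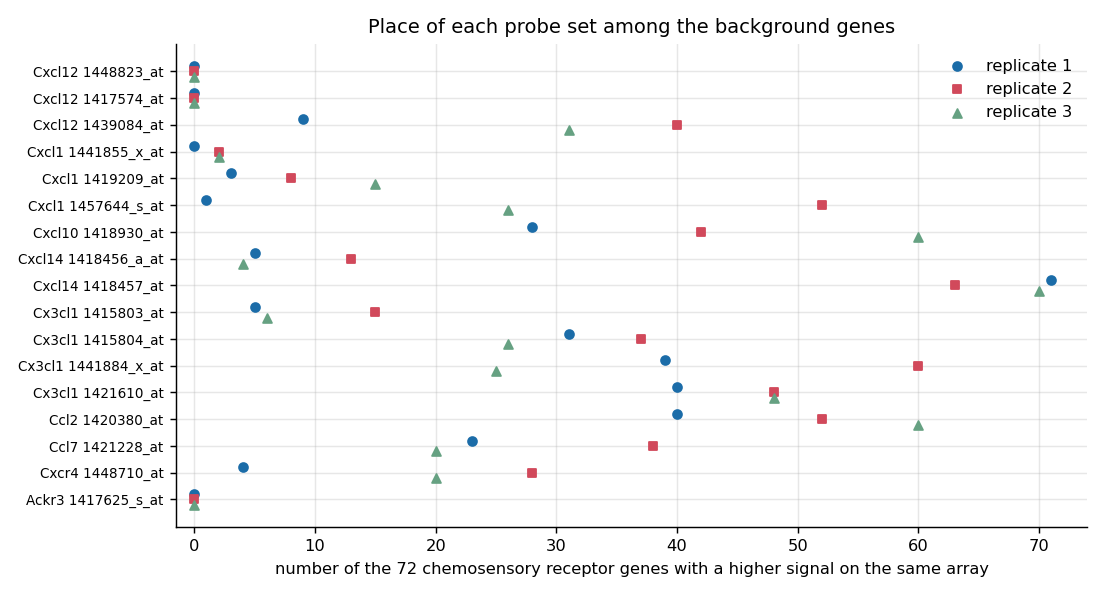
The x axis counts how many of the 72 chemosensory receptor genes had a higher signal than the probe set on the same array, for each of the 17 probe sets (y axis) and replicates 1, 2 and 3. The called probe sets of Cxcl12 and Ackr3 sit at 0 on every array, Cxcl1 1441855_x_at at 0, 2 and 2, and the Cxcr4 probe set at 4, 28 and 20.

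Cxcl1, a neutrophil attractant that acts through Cxcr2, had signals of 285, 230 and 225 in replicates 1, 2 and 3 with its brightest probe set, 1441855_x_at. All 3 arrays were above their level, by 1.08, 0.32 and 0.42 log2 units, and the gene was called at 0.60 ± 0.24 (SE, n = 3; 1.52-fold; limma adjusted p = 0.0418). The lowest distance of any called gene was 0.49, and 89 of the 10432 called genes lay no higher than Cxcl1. The same probe set did not pass among all probe sets (limma adjusted p = 0.0604), though it did in 5 of 10 alternative settings, with a limma adjusted p = 0.0114 at the 90th percentile of the chemosensory genes, and its suffix marks probes that may bind other transcripts. The 2 further probe sets were not called: 1419209_at gave 156, 122 and 112 (-0.32 ± 0.26), and 1457644_s_at gave 193, 18.0 and 64.1 (-1.41 ± 0.72), a spread of 10.7-fold between arrays. The call was lost without replicate 1 (0.37, limma adjusted p = 0.0811) and without replicate 3 (0.70, adjusted p = 0.124).

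The other CXC ligands of the set were not called. Cxcl10, an interferon-induced ligand of Cxcr3, had signals of 47.2, 37.6 and 10.3 on its single probe set and lay at -2.61 ± 0.48 log2 units (SE, n = 3). It was lowest in replicate 3, with 4.57-fold between its highest and lowest array. Cxcl14, a ligand made by many epithelia and fibroblasts, had signals of 121, 116 and 167 with 1418456_a_at, just under the level on each array (-0.28 ± 0.23). Its other probe set, 1418457_at, gave 2.38, 6.39 and 2.67 (-5.55 ± 0.30), and at least 63 of the 72 chemosensory genes exceeded it on every array. The Cxcl14 result near the level therefore applies to one of its probe sets.

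Cx3cl1, a membrane-bound ligand of Cx3cr1 that is released by the proteases Adam10 and Adam17, had 4 probe sets and none was called. The brightest, 1415803_at, gave 120, 108 and 158 in replicates 1, 2 and 3 and lay at -0.35 ± 0.23 log2 units (SE, n = 3). The others lay at -1.66 ± 0.23 (1415804_at), -2.60 ± 0.58 (1441884_x_at) and -2.68 ± 0.24 (1421610_at). All 4 were highest in replicate 3 and below the level on every array.

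The CC ligands Ccl2 and Ccl7, which attract monocytes through Ccr2, were each measured by 1 probe set below the level on every array. Ccl2 had signals of 22.4, 18.5 and 10.9 and lay at -3.28 ± 0.30 log2 units (SE, n = 3). Ccl7 had 58.0, 45.7 and 96.4 and lay at -1.35 ± 0.29. On each array at least 40 of the 72 chemosensory genes had a higher signal than Ccl2, and at least 20 a higher one than Ccl7.

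The promoters of Cxcl1 and Cxcl10 are shown as those of inducible ligands on either side of the call, with capitals marking matches to the consensus kappa B motif of NF-kB on either strand. They are from RefSeq on GRCm38.p6, at chr5:90890995-90891294 (plus strand) for Cxcl1 and chr5:92348840-92349139 (minus strand) for Cxcl10, and are read 5′ to 3′ on the gene's strand.
Cxcl1: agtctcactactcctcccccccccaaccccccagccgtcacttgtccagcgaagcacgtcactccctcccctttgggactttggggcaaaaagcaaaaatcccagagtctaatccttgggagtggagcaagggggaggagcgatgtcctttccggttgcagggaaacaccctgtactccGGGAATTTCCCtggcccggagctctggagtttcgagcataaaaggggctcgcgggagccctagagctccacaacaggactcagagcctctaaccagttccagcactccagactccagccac
Cxcl10: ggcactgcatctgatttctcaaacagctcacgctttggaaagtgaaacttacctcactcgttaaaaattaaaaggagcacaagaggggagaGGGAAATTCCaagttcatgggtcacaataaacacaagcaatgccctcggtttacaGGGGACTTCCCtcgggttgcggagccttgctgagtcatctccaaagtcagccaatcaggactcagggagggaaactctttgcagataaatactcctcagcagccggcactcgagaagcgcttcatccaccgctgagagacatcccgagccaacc
Cxcl1 held 1 stretch that matches on both strands, 71 bases before the start, and Cxcl10 held a match 159 bases before the start and overlapping ones from 104 bases before it. The motif was in 8.46% of 32851 promoters, in 10.1% of those of called genes and in 9.75% of those of genes not called, and it was not in the windows of Cxcl12, Cxcr4, Ackr3, Cxcl14 or Cx3cl1. Ccl2 and Ccl7 are named only. Cxcl1, whose call was marginal and not kept under every alternative, and Cxcl10, which was not called, both held the motif. A match describes the letters of the window and not a bound site.

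The 3 arrays are replicates of 1 condition, so their spread measures the pools and the handling. After centring on the array median, the SD over the arrays was 0.16 log2 units for Cxcl12, 0.17 for Ackr3 and 0.17 for Cxcl1, near the median of 0.16 over all called genes (10th to 90th percentile 0.06 to 0.34). Among the 6 genes that were not called it was 1.17 for Cxcl10, 0.56 for Ccl7, 0.52 for Ccl2, 0.45 for Cxcr4, 0.29 for Cxcl14 and 0.29 for Cx3cl1, and the median over all genes not called was 0.56. With quantile normalization the SD was 0.19 for Cxcl12, 0.14 for Ackr3 and 0.29 for Cxcl1, against 0.18 for Cxcl14 and 0.20 for Cx3cl1, so these genes do not keep their order. Replicate 1 held the highest signal of 9 of the 17 probe sets, among them all 3 of Cxcl12 and all 3 of Cxcl1, beside 30.0% of all probe sets. Replicate 3 held that of 7, including Ackr3 and all 4 of Cx3cl1, beside 39.2%, and replicate 2 that of 1, beside 30.8%. These are signals as deposited, and replicate 1 also had the lowest background level. The called genes whose deviations over the 3 arrays were closest to those of Cxcl12 were Gdap2, Ncln and Fah, with root mean square differences of 0.00076, 0.000869 and 0.00249 log2 units. With 3 arrays such likeness is frequent: 1924 of 10431 other called genes lay within 0.1 of the Cxcl12 pattern.

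The rest of the chemokine family was mostly not called. Of 35 measured ligands, the 7 above included, 6 were called (17.1%), and of 21 measured receptors 2 were (9.52%), beside 57.3% of all genes. Among 11 other CXC ligands, Cxcl16, a transmembrane ligand of Cxcr6, lay at 0.67 ± 0.20 log2 units (SE, n = 3 here and below; signals 227, 266 and 280; limma adjusted p = 0.0149) and the platelet factor Pf4 at 0.58 ± 0.21 (232, 273 and 222; adjusted p = 0.0285). Cxcl2 (-1.56 ± 0.23), Cxcl3 (-2.79 ± 0.42), Cxcl5 (-5.03 ± 0.42) and Cxcl9 (-3.01 ± 0.39) were not called. Both calls were near the level, and both were lost without replicate 3 (Cxcl16 0.64, limma adjusted p = 0.155; Pf4 0.67, adjusted p = 0.135). Pf4 was also lost without replicate 2 (0.59, adjusted p = 0.0894). Without replicate 3, 3 of the 35 ligands were called, and the number of all genes called also changes with the setting. Whether the ligands lost more calls than other genes was not tested.

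Among 17 other measured CC and XC ligands 2 were called (11.8%, beside 57.3% of all genes), both mucosal or skin ligands of Ccr10. Ccl28 had signals of 934, 1393 and 1452 and lay at 2.94 ± 0.21 log2 units (limma adjusted p = 1.24e-05), a call that rests on 1 of its 3 probe sets, with 1.13 when they were averaged. Ccl27a had 665, 958 and 744 and lay at 2.27 ± 0.20 (adjusted p = 4.11e-05), on a probe set whose suffix marks probes that may bind other transcripts. Their receptor Ccr10 was not called, at -2.72 ± 0.66. Ccl1 (-2.46 ± 0.47), Ccl3 (-3.30 ± 0.46), Ccl4 (0.11 ± 0.20) and Ccl5 (-3.33 ± 0.24) were not called either, and Ccl19, Ccl21a and Ccl26 had no value under the single-symbol rule.

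Among 19 other measured receptors 1 was called (5.26%, beside 57.3% of all genes). This was Ackr1, an atypical receptor of erythroid cells and venular endothelium, at 0.97 ± 0.23 log2 units (319, 279 and 354, limma adjusted p = 0.00522). That call was lost when the level was the 99th percentile of the chemosensory genes (0.48, limma adjusted p = 0.112) or came from the tissue restricted genes (0.22, adjusted p = 0.294). The receptors Cxcr2 (-4.14 ± 0.21), Cxcr3 (-0.59 ± 0.42), Cxcr5 (-1.49 ± 0.25) and Cxcr6 (-1.37 ± 0.23) were not called. Of the partners of the 9 genes, Cx3cr1 lay at -0.03 ± 0.22 and Ccr2, the receptor of Ccl2 and Ccl7, at -1.48 ± 0.22. No conventional G protein-coupled chemokine receptor with a value here was called, Cxcr4 included.

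Genes that relay or process chemokine signals were called in 12 of 13 cases (92.3%, beside 57.3% of all genes), and most of them act in many other pathways. The inhibitory G protein subunits Gnai1, Gnai2 and Gnai3 lay at 6.82 ± 0.21, 5.70 ± 0.21 and 7.91 ± 0.20 log2 units. The arrestins Arrb1 and Arrb2, through which Ackr3 signals, lay at 2.57 ± 0.33 and 2.17 ± 0.24, and the receptor kinases Grk3, Grk5 and Grk6 at 4.06 ± 0.20, 2.21 ± 0.25 and 4.77 ± 0.22. When probe sets ending in _s_at or _x_at were left out, Arrb2 lay at -0.31 and Grk3 at -1.18. Dpp4, a peptidase that inactivates Cxcl12, lay at 1.28 ± 0.20, and the Cx3cl1 sheddases Adam10 and Adam17 at 6.72 ± 0.20 and 4.58 ± 0.22. Mif, a cytokine that can bind Cxcr4, lay at 6.14 ± 0.22, while Cd74, its surface receptor, was not called (0.52 ± 0.22, limma adjusted p = 0.0513). Cd74 was called in 6 of 13 alternatives, with 0.87 (limma adjusted p = 0.00537) at the 90th percentile of the chemosensory genes. With the average of each gene's probe sets, the distance was 0.68 for Mif, 2.62 for Adam10 and 1.69 for Grk3, all still called, and -0.41 for Dpp4, which was not.

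**Figure D3:**
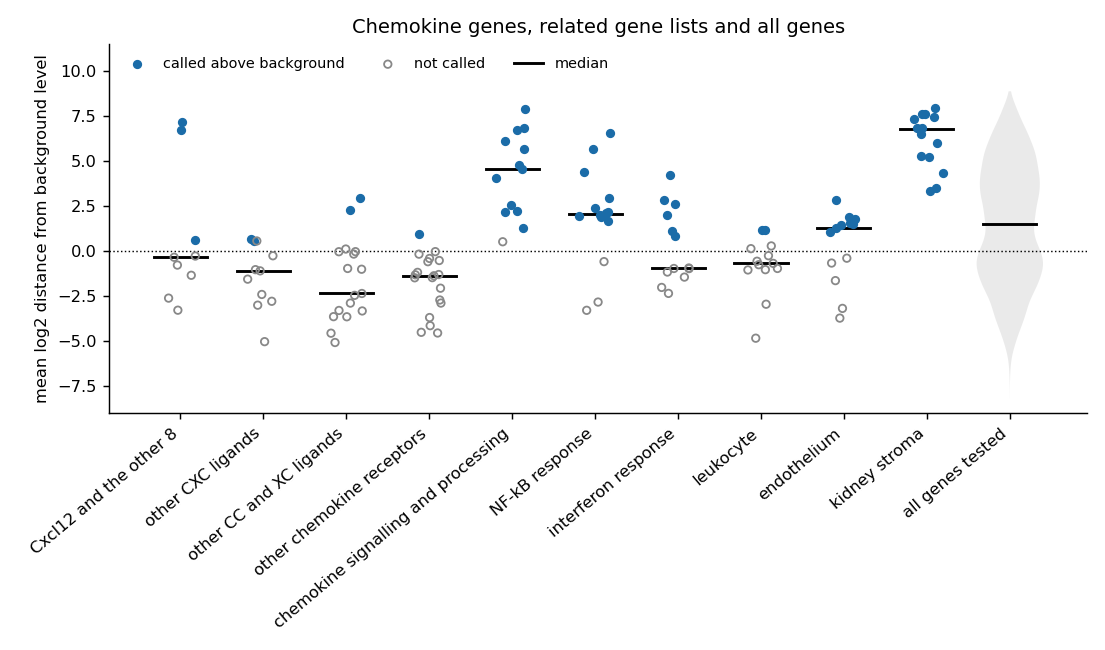
Each point is a gene's mean log2 distance from the background level over the 3 arrays (y axis), filled where called and open where not, for the 9 genes, 9 related lists and, as a grey outline, all 18193 genes; black bars are medians. The 9 genes have a median of -0.35 with Cxcl12 and Ackr3 standing apart, the other chemokine lists have medians of -1.10, -2.36 and -1.37, and all genes have 1.52.

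Cxcl1, Ccl2, Ccl7 and Cxcl10 are known to be induced by NF-kB or interferon, so genes of these responses are given beside them. The NF-kB list had 11 of 14 measured genes called (78.6%, median 2.08 log2 units, beside 57.3% and 1.52 for all genes), among them the inhibitor Nfkbia (6.58 ± 0.23), the subunit Rela (4.36 ± 0.21), Tnfaip3 (2.41 ± 0.23) and the adhesion molecule Icam1 (1.69 ± 0.20). The cytokine Il6 (-2.83 ± 0.61) and the prostaglandin synthase Ptgs2 (-3.29 ± 0.45) were not called. The interferon list had 6 of 13 called (46.2%, median -0.94), among them Irf1 (2.86 ± 0.21), Irf9 (2.03 ± 0.21), Gbp2 (1.12 ± 0.26) and Rsad2 (2.61 ± 0.22), while Ifit1 (-2.35 ± 0.48) and Ifit3 (-0.97 ± 0.21) were not. Gbp2 lost its call in 3 of 13 alternatives, namely the 99th percentile (0.63, limma adjusted p = 0.0612), the tissue restricted level (0.37, adjusted p = 0.186) and the removal of _s_at and _x_at probe sets (0.31, adjusted p = 0.158). Averaging probe sets gave 0.56 for Rsad2, still called, and -0.08 for Tnfaip3, which was not. No undissociated kidney was measured, so none of these levels has a reference.

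Leukocytes and endothelium, cell types known to make or read chemokines, were checked by their markers. The leukocyte list had 2 of 13 genes called (15.4%, median -0.68 log2 units, beside 57.3% and 1.52 for all genes), Csf1r at 1.15 ± 0.20 and Laptm5 at 1.17 ± 0.20, with Ptprc, the common leukocyte antigen, at -1.05 ± 0.32 and Cd68 at -0.57 ± 0.21. Its summed signal ranged between 1765 and 1911 per array. Below the level on every array lay 9 of the 13 genes, beside 6004 of all 18193 genes. The endothelial list had 8 of 13 called (61.5%, median 1.31, beside the same values for all genes), with Cdh5 at 1.31 ± 0.23, Kdr at 1.07 ± 0.21, Tek at 2.86 ± 0.20 and Cd34 at 1.47 ± 0.29, against Pecam1 at -1.64 ± 0.71 and Flt1 at -0.67 ± 0.25. Its summed signal ranged between 4768 and 4968. Kdr was not called at the 99th percentile (0.59, limma adjusted p = 0.0563) or with the tissue restricted level (0.32, adjusted p = 0.158), and Cdh5 (-0.04), Csf1r (0.26) and Laptm5 (0.02) were not when probe sets were averaged. The part of these cells in the Cxcl12, Ackr3 and Ackr1 signals was not tested.

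The calls of Cxcl12 and Ackr3 held under every alternative that gave a value, 13 for Cxcl12 and 12 for Ackr3. Their distances ranged between 3.47 and 7.09 log2 units for Cxcl12 and between 6.39 and 7.49 for Ackr3. None of Cxcr4, Cxcl10, Cxcl14, Cx3cl1, Ccl2 and Ccl7 was called under any of them. The highest value reached was -0.43 for Cxcr4, 0.07 for Cxcl14 and 0.01 for Cx3cl1, each at the 90th percentile of the chemosensory genes.

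**Figure D4:**
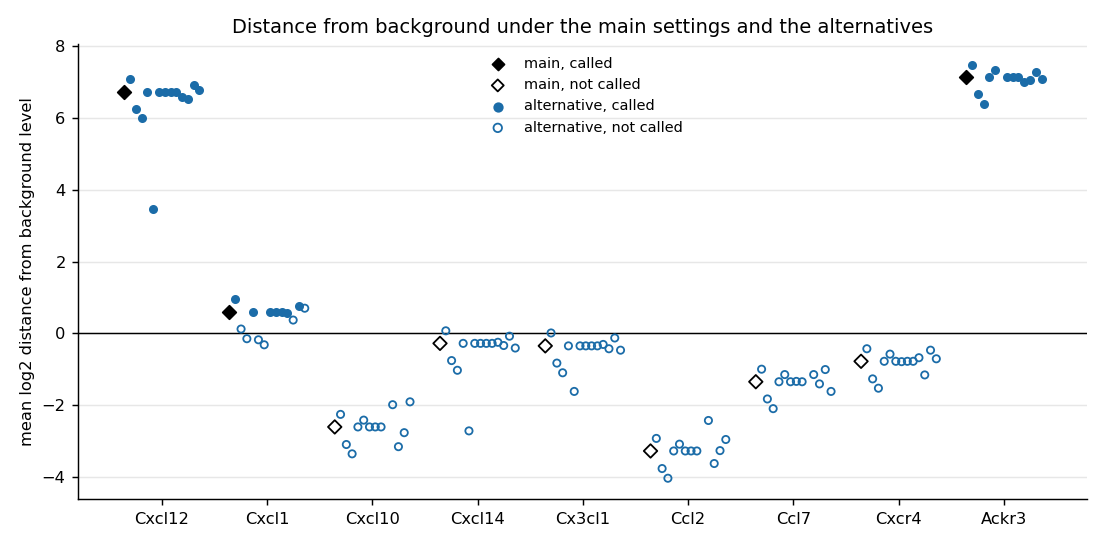
Mean log2 distance from the background level (y axis) of the 9 genes (x axis) under the main settings (black diamonds) and up to 13 alternatives (blue circles), filled where called. Cxcl12 and Ackr3 are filled throughout and at or above 3.47, Cxcl1 is filled in part, and the other 6 genes are open throughout.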

How the data were processed

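RNA of 3 pools was amplified in 2 rounds and hybridised to Affymetrix arrays, per the labels' protocols. The authors deposited 1-colour intensity values on a linear scale, and the submitters' processing notes name GCOS; for its version and signal algorithm, no entry was given in the sources used. Each array had the same mean, 1500.01, once the top and bottom 2% of probe sets were dropped, so scaling preceded deposit. No value was 0 or below, and log2 was taken without a pseudocount.

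Of 45101 probe sets, 64 controls, 932 with several symbols and 9160 with none were left out. Entrez IDs of 34741 matched a RefSeq table of GRCm38.p6, and no symbol changed. A gene took its brightest probe set, and limma 3.58.1 (lmFit, eBayes with prior df 3.88; R 4.3.3) tested distance above background, with Benjamini-Hochberg adjustment. SEs carry the spread of the background levels too. The code of the fit was run on simulated data with known distances, in which far fewer genes lay above the level than here. That run does not check the calls. The members and lists were chosen with earlier results of these data known. Genes named in lists are every called gene and the first 4 not called (chemokine families and signalling), or the first 4 called and the first 2 not called (other lists). Ccr10, Cx3cr1 and Ccr2 were named as receptors of ligands described. Of the tissue restricted list, all 5 called genes were named. No label says that the pools came from different litters, and the p-values therefore reflect sample-to-sample spread that could be technical. The number of arrays limits precision.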

Additional observations from a re-analysis of the deposited data

How the results depend on the processing

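Over 13 alternatives 9166 to 10999 genes were called, and 14554 to 18404 probe sets over 10. Cxcl1 was the gene of the 9 whose call changed: it lay at 0.12 (limma adjusted p = 0.618) at the 99th percentile of the chemosensory genes, -0.15 with a level from tissue restricted genes, -0.18 with the average of a gene's probe sets and -0.32 when those ending in _s_at or _x_at were left out, and between 0.37 and 0.75 when 1 replicate was left out. At the 90th percentile Cxcl14 moved to 0.07 and Cx3cl1 to 0.01 without a call, as did their probe sets and Cxcl1 1419209_at (0.03), Ret (0.01) and Wnt9b (0.22; between -0.25 and 0.01 with 1 replicate left out). Without _s_at and _x_at probe sets 1 of the 9 genes was called. Ackr3 has no other probe set, and Cxcl1 lay below the level (-0.32). In that setting Arrb2 (-0.31) and Grk3 (-1.18) fell below the level, and 1 of the other CC and XC ligands and 3 tissue restricted genes were called. With the tissue restricted level Cxcl16 (-0.08), Pf4 (-0.17), Ccl4 (-0.64), Cd74 (-0.23) and Cxcl1 1441855_x_at (-0.15) lay below it, with 0 other CXC ligands, 0 other receptors, 0 leukocyte genes and 2 tissue restricted genes called. At the 99th percentile the counts were 0 other CXC ligands, 0 other receptors and 2 tissue restricted genes, with Ccl4 at -0.37; at the 90th percentile 10 tissue restricted genes were called, against 5 in the main setting. The mean over probe sets placed Cxcl16 (-0.46), Dpp4 (-0.41), Tnfaip3 (-0.08), Cdh5 (-0.04), Eya1 (-0.29) and Calb1 (-1.43) below the level and left 1 other CXC ligand and 0 leukocyte genes called. With 1 replicate left out, 0 to 2 other CXC ligands and 2 to 5 tissue restricted genes were called. The cause of these changes was not tested. Cxcl10, Ccl2 and Ccl7 have no value without the dimmest genes, and Ccl27a none without _s_at and _x_at probe sets. No paired analysis was possible because there is 1 group. Signal close to the level limits the calls of Cxcl1, Cxcl16, Pf4 and Ackr1.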
